A study of Mus musculus with 48 samples.

Results

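Ribosome-bound messenger RNA of the 2 classes of spiny projection neuron was compared between 2 mouse lines in water groups, in the nucleus accumbens, a part of the ventral striatum that serves reward. The comparison used 24 of the 48 libraries of the series, chosen by their labels alone: 12 from Drd1Cre x Rpl22HA mice (called D1 here) and 12 from A2ACre x Rpl22HA mice (called D2), each with 6 male and 6 female libraries, all labelled as water abstinence. Each library pooled 4 mice, with 4 punches of 14 gauge per mouse, taken on day 10. In every group, controls included, recombination by Cre adds a haemagglutinin tag to Rpl22, a protein of the ribosome, and polyribosomes carrying it are pulled down with an antibody (RiboTag). Cre follows the gene of the dopamine D1 receptor in one line and that of an adenosine receptor, Adora2a, in the other, so cell class and mouse line cannot be told apart. Strain background and age are not given in the labels. A difference below is therefore a difference between lines, and fewer cells of a type and less RNA per cell cannot be told apart in such bulk samples.

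Spiny projection neurons make up most neurons of the striatum and release GABA. Those of the direct pathway carry the D1 receptor, whose stimulation raises cyclic AMP, and make dynorphin and substance P. Those of the indirect pathway carry the D2 receptor and Adora2a, which act on cyclic AMP in opposite directions, and make enkephalin. Interneurons, glia and vessels lie between them, and a pull-down from whole tissue also carries some of their RNA.

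The D1 libraries held 20211543 to 29993504 reads in genes and the D2 libraries 27101011 to 42584762. Of 54838 genes, 17438 passed the count filter, and all 24 libraries entered 1 edgeR fit with sex as a term. In that fit 4711 genes were higher and 4587 lower in D1 at an adjusted p under 0.05, which is 27.0% and 26.3% of those tested, or 53.3% in all. At least 2-fold differences were less even, with 583 genes higher (3.34%) and 1249 lower (7.16%). The first principal component carried 48.7% of the variance and separated the lines. On the second, D1 male 2, D1 male 3 and D1 female 6 stood apart from the other D1 libraries, and they also read low for transcripts rich in G and C. As a median log2 deviation from the mean D1 library, their most GC-rich 10% of genes stood at −0.31, −0.28 and −0.41 relative to their GC-poorest 10%, and the other 9 D1 libraries at 0.05 to 0.21. Values without these 3 libraries are given beside some of the results below and with the account of GC content.

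Promoter sequences of 4 genes that mark the lines are shown because the receptor genes define the classes and Isl1 and Gpr6 are among the strongest markers of each. They run from 250 bases before to 50 after the start (RefSeq, GRCm38.p6, each on its gene's strand). Capitals mark every CGTCA or TGACG, the half-site of the cyclic AMP response element on either strand.
Drd1, chr13:54055609-54055908, minus strand: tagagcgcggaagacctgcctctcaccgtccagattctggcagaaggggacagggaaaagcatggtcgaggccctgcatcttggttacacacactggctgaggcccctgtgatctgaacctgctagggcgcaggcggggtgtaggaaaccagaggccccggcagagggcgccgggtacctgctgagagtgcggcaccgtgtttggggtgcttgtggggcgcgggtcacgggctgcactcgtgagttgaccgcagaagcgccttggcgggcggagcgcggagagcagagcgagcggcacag
Isl1, chr13:116309639-116309938, minus strand: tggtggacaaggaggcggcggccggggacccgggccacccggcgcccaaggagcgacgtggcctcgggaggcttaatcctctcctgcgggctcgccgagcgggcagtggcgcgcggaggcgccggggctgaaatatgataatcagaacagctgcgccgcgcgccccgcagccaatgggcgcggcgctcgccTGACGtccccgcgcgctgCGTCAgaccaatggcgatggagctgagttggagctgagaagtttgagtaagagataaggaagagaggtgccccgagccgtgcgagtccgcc
Drd2, chr9:49340153-49340452, plus strand: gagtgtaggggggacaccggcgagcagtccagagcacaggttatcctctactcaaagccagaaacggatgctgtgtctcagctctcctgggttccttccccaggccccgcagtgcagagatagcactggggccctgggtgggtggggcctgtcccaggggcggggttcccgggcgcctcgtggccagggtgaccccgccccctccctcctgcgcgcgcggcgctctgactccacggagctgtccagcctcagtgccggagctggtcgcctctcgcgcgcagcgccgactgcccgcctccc
Gpr6, chr10:41072241-41072540, minus strand: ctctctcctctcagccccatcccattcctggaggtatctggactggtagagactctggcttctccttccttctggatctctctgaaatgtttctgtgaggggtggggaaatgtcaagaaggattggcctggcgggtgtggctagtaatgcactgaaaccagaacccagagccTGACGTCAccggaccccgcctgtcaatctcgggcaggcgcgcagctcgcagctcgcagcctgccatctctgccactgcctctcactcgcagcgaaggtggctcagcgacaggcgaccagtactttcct
The Isl1 window holds 2 separate half-sites and the Gpr6 window 1 full TGACGTCA, in which the half-sites overlap. Of all 32851 promoter windows in the table, 20.81% hold a half-site and 1.79% the full sequence. Drd1 and Drd2 hold neither in these windows, which are 65.7% and 70.3% G and C. Drd1 has 2 starts in the table, and only the window of the outermost is shown. Of the 11 D1 neuron markers 8 matched the table by symbol, and 4 of them hold a half-site in any of their windows. Of the 10 D2 neuron markers 7 matched, and 2 do. These counts are of genes, which can have several windows, so they cannot be set against the share of single windows.

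Each pull-down held more RNA of its own class's markers than the other, and the library values of the strongest markers did not overlap. The series holds no library of whole tissue, so enrichment over tissue was not tested. Drd1 (ENSMUSG00000021478, chromosome 13, 54051183 to 54055705) ran from 428.4 to 600.8 CPM (counts per 1000000 reads in genes, median 469) in D1 and from 38.2 to 62.7 (median 48.7) in D2, a log2 difference (D1 minus D2) of 3.27 (SE 0.07). The LIM homeobox factor Isl1, needed for the direct-pathway fate, ran from 40.6 to 47.5 CPM against 1.30 to 3.05, 20.5-fold in the means. Its mean was 44.1 ± 2.64 CPM in D1 and 2.15 ± 0.478 in D2 (SD, n = 12 each). The dynorphin precursor Pdyn ran from 512 to 908 against 23.4 to 49.2 CPM and the sugar transporter gene Slc35d3 from 79.2 to 139.9 against 6.25 to 11.4. The D1 marker list, like the other lists below, was chosen with earlier results of these data known. Its counts are description and no test. All 11 D1 neuron markers were higher in D1, with a median log2 difference of 2.40 against −0.01 over all genes. In 10 of them all D1 libraries lay above all D2 libraries, which held for 6.88% of all genes tested, and the reverse held for 6.41%. The smallest were in the forkhead factor Foxp2 (0.83) and in Eya1 (0.75), whose libraries overlapped at 3.49 to 7.12 against 2.41 to 4.34 CPM.

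All 10 D2 neuron markers tested were lower in D1, 9 without overlap, with a median of −1.96. The enkephalin precursor Penk ran from 1365 to 3332 CPM in D1 and between 14030 and 19260 in D2, 7.03-fold higher in D2. Drd2 ran from 21.1 to 85.1 against 353 to 456 CPM, and the orphan receptor Gpr6, whose promoter is shown above, from 31.3 to 108 against 401 to 555. The zinc finger factor Sp9, needed for D2 neurons to form, ran from 15.3 to 37.7 against 75.7 to 96.2 CPM (log2 −1.67, SE 0.13). Adora2a ran from 23.7 to 166 CPM in D1 and between 731 and 1101 in D2. Its 3 lowest D1 values, 38.0, 23.7 and 29.8 CPM, were those of D1 male 2, D1 male 3 and D1 female 6, and the other 9 D1 libraries lay at 82.2 to 166. Its log2 difference was −3.15 (SE 0.25) with all libraries and −2.86 without those 3 (edgeR adjusted p = 1.72e-11 and 3.35e-18). Its longest transcript is 59.2% G and C, among the highest 10%. Chrm4, a muscarinic receptor of direct-pathway neurons (57.0%), was likewise lowest there, at 10.4, 10.8 and 6.53 CPM against 16.2 to 25.8 in the other D1 libraries. It still lay above every D2 library (1.94 to 3.38).

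**Figure D1:**
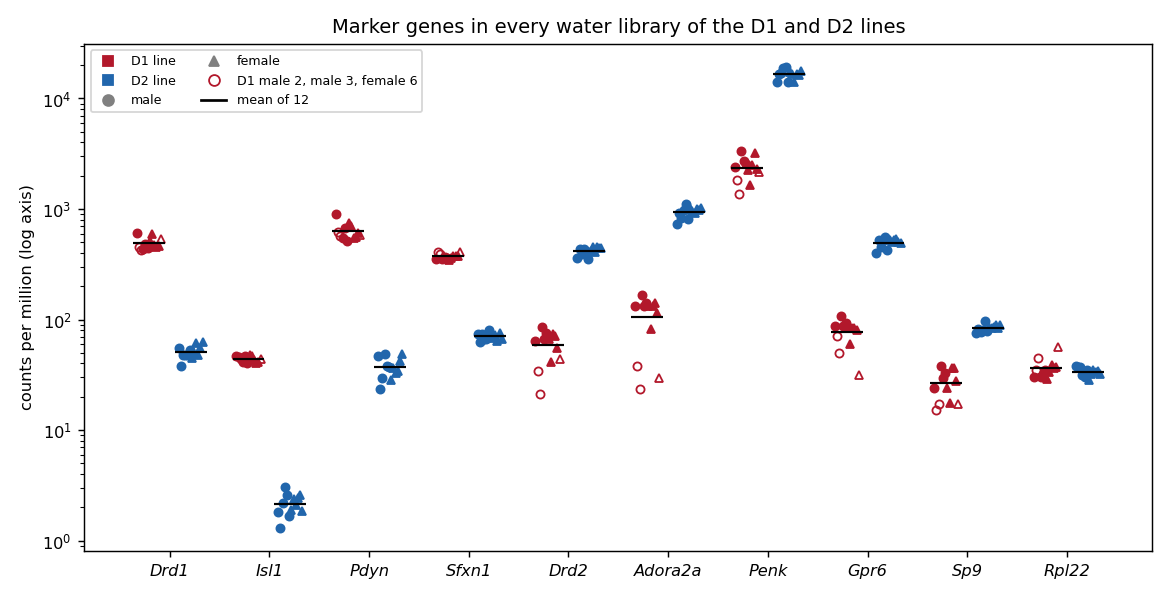
CPM (log axis) of 10 genes in each of the 24 libraries, red for D1 and blue for D2, circles for males and triangles for females, with black bars at the mean of 12; open symbols are D1 male 2, D1 male 3 and D1 female 6. Every gene but Rpl22 separates the lines, and the open symbols are the 3 lowest values of Adora2a in D1.

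Marker RNA of the other class was found in both pull-downs, and its cells of origin were not tested. Summed over the D2 markers, the D1 libraries held 8.9 to 21.1% of the mean D2 level (median 15.2%). Summed over the D1 markers, the D2 libraries held 18.6 to 24.7% of the mean D1 level (median 21.7%). The share differed between genes: Isl1 in D2 stood at 2.15 CPM on average against 44.1 in D1, whereas the substance P precursor Tac1 stood at 503 against 1815. Single genes weigh heavily in the sums, which do not measure a share of cells. Penk ran from 1365 to 3332 CPM in D1, where the D2 marker sum ran from 1683 to 3978. In D2, Tac1 held 503 of the 847 CPM to which the D1 markers summed on average. In the 3 D1 libraries low in GC-rich transcripts the D2 markers stood at 8.9, 11.9 and 13.2%, and in the other 9 at 10.8 to 21.1%. Rpl22, the gene of the tagged protein, had a mean of 36.6 ± 7.66 CPM over D1 libraries and of 33.8 ± 2.99 over D2 libraries (SD, n = 12 each) and did not pass (edgeR adjusted p = 0.269).

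Markers common to both spiny neuron classes were close to even or lower in D1. None of 15 was higher in D1 and 7 were lower, with a median of −0.09. Without D1 male 2, D1 male 3 and D1 female 6 the retinoic acid receptor Rarb was higher (0.22, edgeR adjusted p = 0.0367) and 8 were lower. Rasd2, a striatal small GTPase also called Rhes, had a log2 difference of −0.86 with overlapping libraries. The phosphatase Ptpn5 (−0.47) and Ppp1r1b, the DARPP-32 gene (−0.43), were also lower, while the phosphodiesterase Pde10a (0.04), the transcription factor Bcl11b (0.02) and the olfactory G protein gene Gnal (0.08) did not pass. Of 15 general neuronal genes 12 were higher in D1 and none lower (median 0.32), led by the microtubule regulator Stmn2, at 353 to 581 CPM against 151 to 304. Of 8 genes of GABA neurons 2 were higher and 2 lower, near the shares of all genes tested (27.0% and 26.3%). The GABA-synthesizing enzyme gene Gad1 was even (0.01, 656 against 653 CPM). The homeobox gene Dlx6 was lower in D1 (−0.79).

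Most listed transcripts of glia, vessels and blood were lower in D1. The lowest median of any list was that of blood genes, −4.46 against −0.01 over all genes. The pericyte protein vitronectin, Vtn, ran from 0.634 to 1.96 CPM in D1 and between 89.0 and 181 in D2, with a log2 difference of −6.63 (SE 0.15). All 16 endothelial genes were lower in D1 (median −3.57), 15 of them without overlap. Lower too were 10 of 11 mural genes (−4.34), all 6 fibroblast genes (−2.91) and all 5 blood genes (−4.46). Of all genes tested 26.3% were lower in D1, and in 6.41% all D2 libraries lay above all D1 libraries. Cldn5, which seals the junctions of brain endothelium, ran from 2.08 to 6.80 CPM in D1 and between 44.1 and 68.6 in D2. Summed over its list, endothelial RNA stood at 93.4 to 132 CPM in D1 and 387 to 565 in D2, and mural RNA at 6.96 to 11.1 against 151 to 287. Blood RNA stood at 7.27 to 22.5 CPM against 303 to 531, and the globin genes share 53.2 to 89.3% of their 50-base stretches with other genes. In D1 the means of 9 of 11 mural, 6 of 16 endothelial and 6 of 7 macrophage and class II genes lay under 1 CPM.

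Glial transcripts were lower in D1 by smaller amounts, and not in every gene. Over all genes tested the share lower in D1 was 26.3%. All 13 oligodendrocyte genes were lower (median −1.22), from the myelin gene Mbp at 154 to 193 CPM in D1 against 239 to 321 in D2 to Opalin with a log2 difference of −1.94. Of 13 astrocyte genes 11 were lower (median −2.05), with the intermediate filament gene Gfap at 0.865 to 3.57 CPM against 11.8 to 33.2. The glycolytic enzyme gene Aldoc ran from 33.8 to 60.4 against 170 to 341 CPM. The astrocytic glutamate transporter Slc1a2 did not pass (−0.10, 95% interval −0.38 to 0.17), nor did the bicarbonate transporter Slc4a4 (0.12). Slc1a2 was highest in D1 at 404, 396 and 415 CPM in D1 male 2, D1 male 3 and D1 female 6, against 186 to 302 in the other 9. Without those 3 libraries it was lower in D1 (log2 −0.35, edgeR adjusted p = 0.00626). Of 8 genes of oligodendrocyte precursors 7 were lower (median −1.62), of 10 microglial genes 8 (−1.44) and of 7 macrophage and class II genes 7 (−3.07). Of 4 ependymal genes 1 was lower (−0.37), near the share of all genes tested. The class II gene H2-Ab1 ran from 0 to 0.392 CPM in D1 and between 5.65 and 13.03 in D2.

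**Figure D2:**
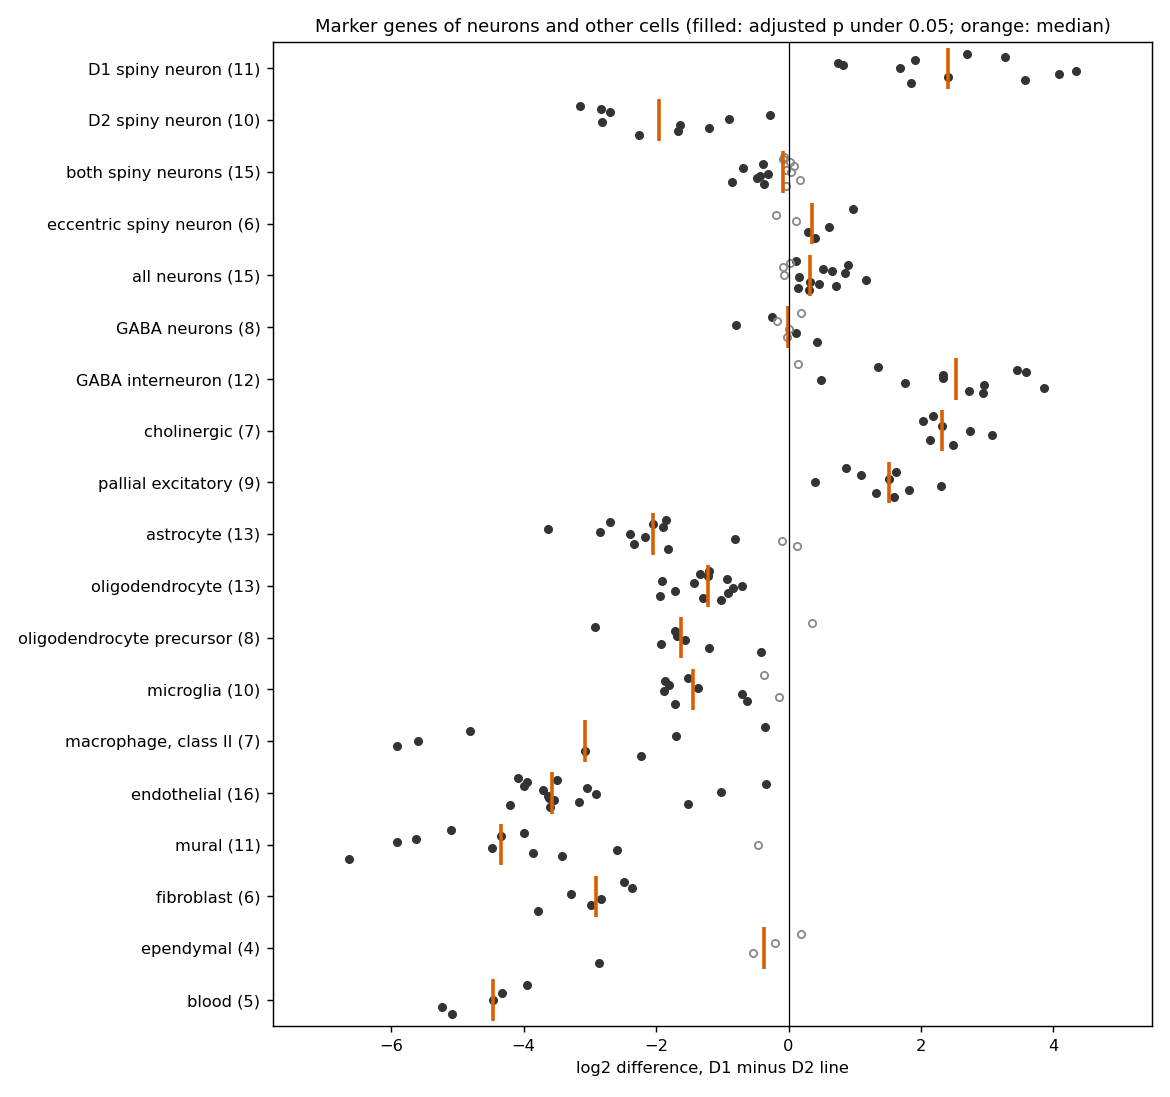
Log2 difference, D1 minus D2, of each tested marker gene (1 point each) by cell class, with the number of genes in brackets, filled points for an adjusted p under 0.05 and an orange bar at the median. Medians of glial, vascular and blood lists lie from −1.22 to −4.46, apart from the ependymal list at −0.37, and those of interneuron and pallial lists from 1.52 to 2.53.

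Neurons other than spiny neurons gave the opposite picture. Over all genes tested 27.0% were higher in D1, and of 15 general neuronal genes 12 were. Of 12 genes of GABA interneurons 11 were higher in D1 (median 2.53), led by the parvalbumin gene Pvalb of fast-spiking cells at 13.2 to 38.6 CPM against 0.852 to 2.95. The somatostatin gene Sst ran from 320 to 722 against 55.7 to 102 CPM. The calretinin gene Calb2 did not pass (0.14, 42.1 against 38.0 CPM in the means). All 7 cholinergic genes tested were higher (median 2.31), at low levels: Chat, which makes acetylcholine, ran from 0.748 to 5.27 CPM in D1 and between 0.252 and 0.943 in D2. All 9 genes of pallial excitatory neurons, a class of cortex and hippocampus, were higher too (median 1.52). Without D1 male 2, D1 male 3 and D1 female 6 it was 8 of 9, since Rorb, a nuclear receptor of cortical neurons, went from 0.40 to 0.18 (edgeR adjusted p = 0.258). The vesicular glutamate transporter Slc17a7 ran from 248 to 656 CPM in D1 and between 99.6 and 265 in D2, with overlap. Of 6 genes of eccentric spiny neurons, a small class reported in mouse striatum, 4 were higher, led by Adarb2 (0.97). The GABA interneuron list summed to 562 to 1208 CPM in D1 and 165 to 263 in D2, and the pallial list to 466 to 910 against 144 to 382. Their part in the differences of gene families below was not tested.

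**Figure D3:**
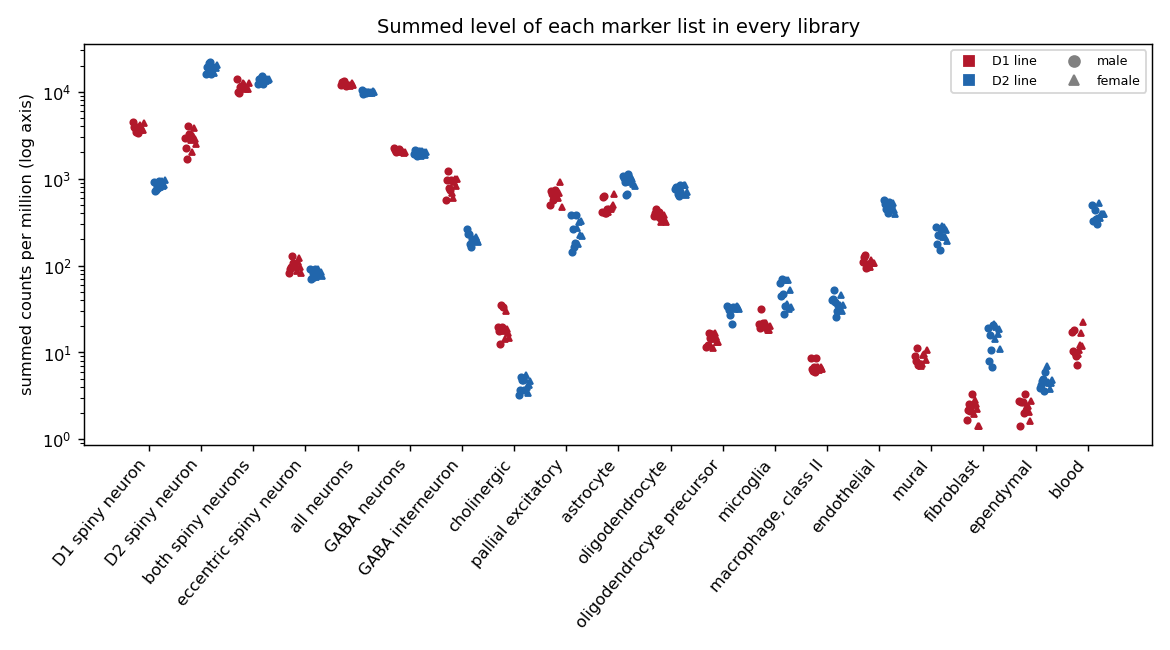
Summed CPM (log axis) of each marker list in the 24 libraries, red for D1, blue for D2, circles for males and triangles for females. Endothelial, mural and blood sums of all D2 libraries lie above all D1 libraries, and the GABA interneuron, cholinergic and pallial sums lie the other way round.

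The genes furthest apart between the lines were of both kinds. Of the 10 genes highest in D1 by log2 difference, at 5 CPM or more and without overlap, 4 were D1 neuron markers (Isl1, Pdyn, Slc35d3 and Drd1) and 3 were on the interneuron list (Pvalb, Cort and Cox6a2). First came Arhgap36, a regulator of hedgehog signalling, at 7.16 to 18.2 CPM in D1 and 0.0882 to 0.828 in D2 (log2 4.99, SE 0.20). Crhbp, which binds and buffers corticotropin-releasing hormone, ran from 21.6 to 57.2 against 2.38 to 8.06 CPM. The 10 highest in D2 held no spiny neuron marker. Behind Vtn and H2-Ab1 they included Kcnj8, a potassium channel of pericytes (−5.91), and Slc38a5, an amino acid transporter (−5.86), at most 0.446 and 0.405 CPM in any D1 library. Slc22a8, an organic anion transporter of brain vessels, ran from 0 to 0.677 against 5.00 to 10.5 CPM.

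Among neuropeptide genes 14 of 19 were higher and 3 lower in D1 (median 1.85), beside 27.0% and 26.3% of all genes tested. Beside Pdyn and Tac1 the higher ones included genes also made by interneurons, among them the vasoactive intestinal peptide gene Vip (2.93) and Npy (1.76). Crh, the corticotropin-releasing hormone, ran from 7.21 to 15.99 against 0.834 to 2.99 CPM. The nociceptin precursor Pnoc had a log2 difference of 2.88. The 3 lower genes were Penk, the thyrotropin-releasing hormone gene Trh (−0.84, libraries overlapping) and Cartpt (−0.27). Opioid precursors thus split between the lines, with Pdyn and Pnoc higher in D1 and Penk higher in D2. Which cells made the Pnoc and Crh RNA was not tested.

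Of 61 genes of G protein-coupled receptors 35 were higher and 12 lower in D1 (median 0.50), beside 27.0% and 26.3% of all genes tested. Of 15 general neuronal genes 12 were higher, with a median of 0.32. The cannabinoid receptor Cnr1 ran from 71.7 to 130.5 CPM in D1 and between 21.6 and 36.5 in D2. The orphan receptor Gpr101 ran from 7.90 to 23.8 against 1.47 to 5.45. The kappa opioid receptor Oprk1 was higher in D1 (0.66, 65.3 against 41.3 CPM) and so was the mu receptor Oprm1 (0.95, 4.33 against 2.23). The delta receptor Oprd1 was lower (−0.71, 6.97 against 11.4). After Adora2a, Drd2 and Gpr6, the lower receptors at 5 CPM or more were led by the corticotropin-releasing hormone receptor Crhr1, at 3.22 to 6.16 CPM in D1 against 8.17 to 13.7 in D2. The serotonin receptor Htr7 followed, at 2.42 to 6.08 against 6.09 to 10.2 CPM. The hormone Crh and its receptor Crhr1 thus lay in opposite directions between the lines, and which cells made either RNA was not tested.

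Of 27 transcription factors 15 were higher and 4 lower in D1 (median 0.22), beside 27.0% and 26.3% of all genes tested. For comparison, the median of the 15 general neuronal genes was 0.32. Isl1 was followed by the zinc finger gene Zfp521, at 6.27 to 11.8 CPM against 1.12 to 2.63, and by Ebf1, a factor of direct-pathway neurons (1.91). The 4 lower genes were Sp9, the retinoid receptor Rxrg (−0.60), the homeobox gene Six3 (−0.56) and Foxp1 (−0.38). Six3, also needed for D2 neurons in mouse, ran from 80.3 to 131 CPM in D1 and between 138 and 181 in D2.

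In the list of cyclic AMP signalling 6 of 25 genes were higher and 10 lower in D1 (median 0.00), beside 27.0% and 26.3% of all genes tested. The G protein subunit gene Gnb4, also a D1 marker here, ran from 130 to 188 CPM against 45.4 to 58.9. The phosphodiesterase Pde4b was lower (−0.57), whereas adenylyl cyclase Adcy5 did not pass (−0.07, 700.5 against 735 CPM).

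Among channels and receptors of the membrane more genes were higher than lower in D1. For comparison, 27.0% of all genes tested were higher, and 12 of 15 general neuronal genes were, with a median of 0.32. Of 32 potassium channel genes 18 were higher and 4 lower (median 0.21). Kcnc2, which makes a fast delayed rectifier of fast-spiking cells, ran from 21.8 to 44.4 CPM in D1 and between 3.61 and 6.64 in D2. The inward rectifier Kcnj4 was lower in D1 (−0.45), with 72.5, 74.1 and 91.6 CPM in D1 male 2, D1 male 3 and D1 female 6 against 194 to 217 in the other 9 D1 libraries. Without those 3 libraries its difference was −0.22, smaller than that of the background potassium channel Kcnk2 (−0.32). Of 26 sodium, calcium and HCN channel genes 14 were higher and 4 lower (median 0.27), with the calcium channel subunit Cacna2d2 at −0.84, 15.96 to 38.2 against 46.9 to 60.4 CPM. Of 33 ionotropic receptor genes 27 were higher and 2 lower (median 0.43). The NMDA receptor subunit Grin3a ran from 22.5 to 50.02 against 6.78 to 15.3 CPM. The 2 lower genes were the kainate receptor Grik3, at 47.3 to 75.8 against 110.5 to 128.5 CPM, and the extrasynaptic GABA receptor subunit Gabrd (−0.40). Of 46 genes of adhesion and axon guidance 31 were higher and 3 lower (median 0.45). Nxph1, a neurexophilin made by interneurons, ran from 26.7 to 55.1 CPM against 3.29 to 11.1.

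**Figure D4:**
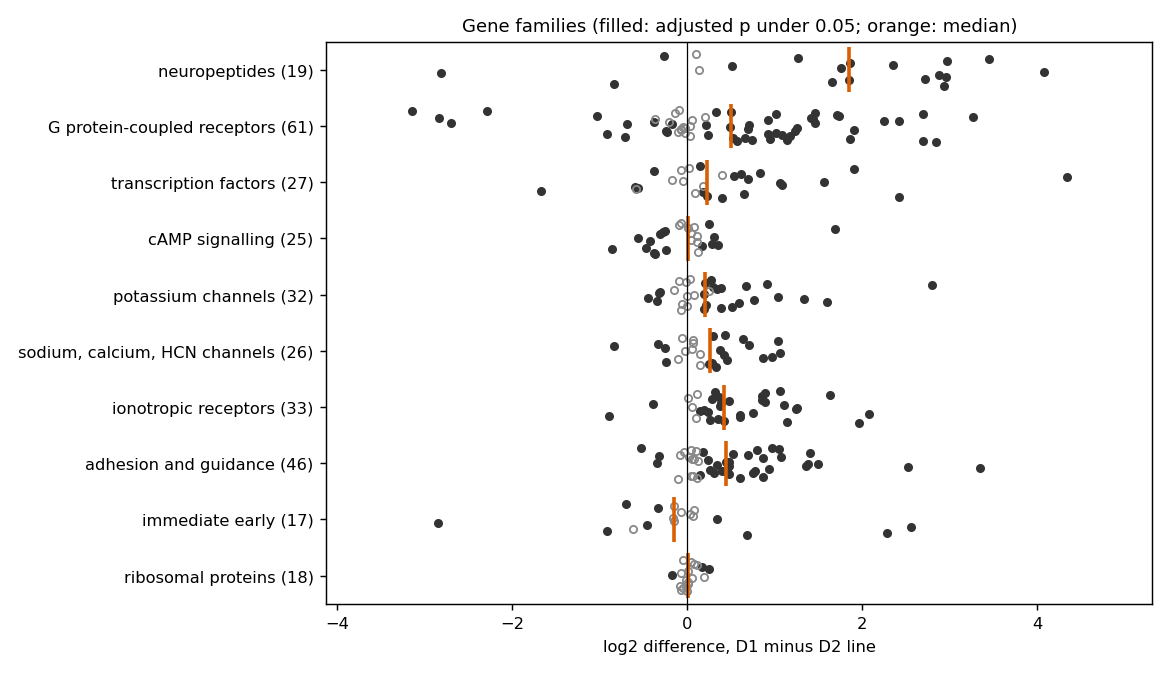
Log2 difference, D1 minus D2, of each tested gene in 10 gene families, with the number of genes in brackets, filled points for an adjusted p under 0.05 and an orange bar at the median. Neuropeptides have the highest median (1.85), and ribosomal protein genes lie between −0.17 and 0.25.

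Immediate early genes went both ways, with 4 of 17 higher and 5 lower (median −0.15). These counts lie near the shares of all genes tested, 27.0% higher and 26.3% lower. Jun, a subunit of the AP-1 factor, ran from 32.7 to 49.99 CPM in D1 and between 244 and 332 in D2, a log2 difference of −2.85 (SE 0.07). All D2 libraries lay above all D1 libraries. The next lower genes were the nuclear receptor Nr4a1 (−0.92) and the synaptic gene Arc (−0.70), both with overlap. Nr4a2 went the other way, at 33.1 to 113 against 6.16 to 23.3 CPM. Fos (0.03) and Egr1 (0.08) did not pass. The call of Jund (2.56) came with 1 library far above the others: D1 male 6 stood at 39.8 CPM and the other 11 D1 libraries at 0.195 to 0.753, against 0.200 to 0.518 in D2. In females, which leave that library out, its log2 difference was 0.41 and did not pass (edgeR adjusted p = 0.183), and 48.3% of its 50-base stretches occur in other genes. Of 18 ribosomal protein genes 2 were higher and 1 lower (median 0.01), and without D1 male 2, D1 male 3 and D1 female 6 it was 2 and 5 (median −0.10).

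Genes within 250 kb of Drd1 and Adora2a, whose regulatory sequence drives Cre, are given here. Sfxn1, a mitochondrial serine transporter beside Drd1 on chromosome 13 (54071869 to 54108342), is also on the D1 marker list. It ran from 345 to 406 CPM in D1 and between 63.2 and 79.7 in D2 (log2 2.40, SE 0.04). The histamine receptor Hrh2 (0.69) and the noncoding Gm48623 (0.67) were also higher, with overlapping libraries. Beside Adora2a on chromosome 10, Upb1, an enzyme of pyrimidine breakdown (75401115 to 75441679), is also on the D2 marker list. It ran from 5.44 to 15.7 CPM in D1 and between 35.97 and 58.6 in D2. Ggt1 stood at 0 to 0.203 against 1.11 to 3.22 CPM. Gucd1 (−0.40) and Specc1l (−0.31) were lower in D1 by less, and Bcr (0.05), Snrpd3 (−0.14) and Lrrc75b (0.33) did not pass. Without D1 male 2, D1 male 3 and D1 female 6, Bcr was higher in D1 (0.12, edgeR adjusted p = 0.0316) and Snrpd3 lower (−0.25, 0.000154).

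The comparison was also made within each sex. In males 3091 of 16437 genes were higher and 3223 lower in D1 (38.4% in all), and in females 3806 of 16424 were higher and 3443 lower (44.1% in all). Of the genes tested in both sexes 4936 were called in both, which is 78.8% of the male and 68.9% of the female calls, and 4932 of these had the same sign. Isl1 had a log2 difference of 4.35 in males and 4.32 in females, Drd1 3.28 and 3.24, and Adora2a −3.10 and −3.23. No gene passed edgeR's test of the difference between the sexes at an adjusted p under 0.05 (0 of 17438, or 0.0%), while 1400 had an unadjusted p under 0.05 and DESeq2 called 4. The smallest p at 5 CPM or more was that of Ndufb4c, a gene whose 50-base stretches all occur in other genes and whose libraries ran from 0.382 to 25.2 CPM. The junction protein Jph1, which tethers surface and internal membranes, had a log2 difference of 0.31 in males and 0.93 in females, and the test of that difference did not pass (edgeR adjusted p = 0.171).

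**Figure D5:**
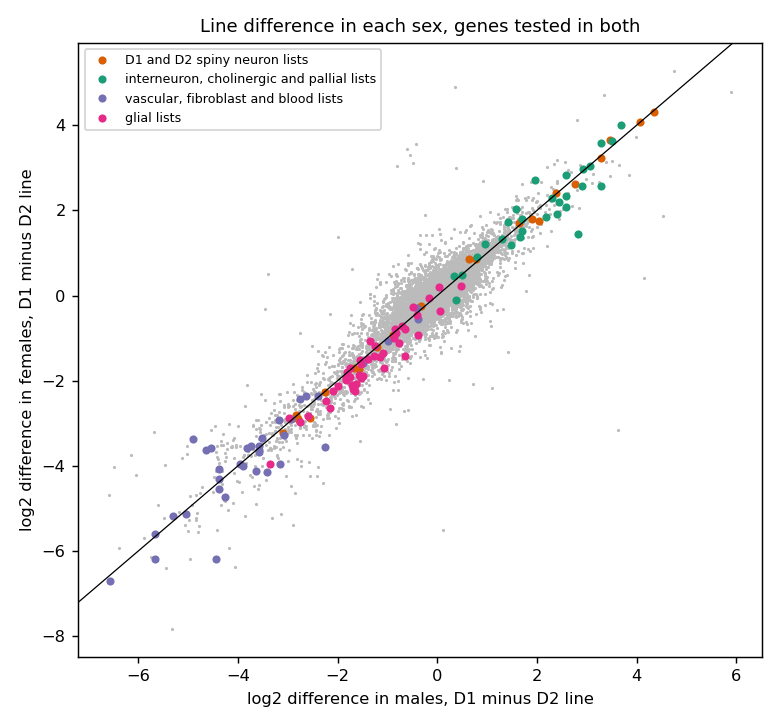
Log2 difference, D1 minus D2, in females against that in males for the genes tested in both sexes (grey), with marker lists coloured and the line of equality in black. Spiny neuron markers run from −3.23 to 4.35 over both axes and lie along the line.

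Over all genes the line difference also followed GC content. The median log2 difference was 0.12 in the GC-poorest 10% of genes and −0.08 in the most GC-rich 10%. In the first 651 genes were higher and 258 lower in D1, and in the last 351 and 583. Without D1 male 2, D1 male 3 and D1 female 6 the medians were 0.06 and −0.04, with 570 higher and 303 lower against 448 and 574. All 11 D1 and all 10 D2 markers kept their calls without those libraries, with medians of 2.36 and −1.83. Of the other lists, 12 of 13 astrocyte and 9 of 10 microglial genes were then lower, 5 of 27 transcription factors were lower, and 17 of 26 sodium, calcium and HCN channel genes and 29 of 33 ionotropic receptor genes were higher. The additional transcription factor was Sp8 (−0.83, edgeR adjusted p = 0.0205).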

How the data were processed

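RiboTag RNA-seq libraries of 24 water samples were analysed; the fentanyl libraries were not used. Per the labels' protocols, Smart-Seq v4 turned 10 ng of RNA into each library. This kit does not mark strand, so reads of overlapping genes on either strand cannot be told apart. The submitters' processing notes name TopHat2 2.0.8, HTSeq and the build GRCm38, without their order; HTSeq's version, strand setting and annotation are not given in the sources used here. The authors deposited whole-number read counts per gene, with no normalization, for 54838 genes. The 5 summary lines of each file were left out. They held 24.7 to 32.6% of reads in D1 and 18.5 to 22.2% in D2, without overlap. Reads in no annotated gene made up 12.1 to 17.5% in D1 and 7.1 to 10.0% in D2. The part of this difference in the results was not tested. No molecular identifiers were used, so counts are not independent molecules.

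Counts were fitted with edgeR 4.0.16 in R 4.3.3 (TMM scaling, filterByExpr with a count minimum of 10 and a total of 15, quasi-likelihood test, sex and line as terms, Benjamini-Hochberg adjustment at 0.05, two-sided, 95% intervals). Sex is the grouping of animals that file names give. Males, females and the difference between the sexes were fitted alike. CPM values use TMM library sizes. The spread behind each p-value is that between pools of 4 mice. Symbols, coordinates and transcripts are from GENCODE M21, with a symbol for 54809 genes. For 17421 of 17438 genes tested a GC content of the longest transcript was found. Named genes were compared with other genes' transcripts in stretches of 50 bases. No pair among 60 within-group pairs was a copy.

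The members and the 29 gene lists were chosen with earlier results of these data known, and no list was tested. The rule for named genes took Drd1, Drd2, Adora2a, Isl1 and Rpl22, up to 4 members of each list with the largest difference at a mean of 5 CPM or more, the 10 each way over all genes, 8 each way over neuronal families, 6 by the test between sexes, and neighbours within 250 kb. Other genes named were chosen after their values were seen. Of the listed genes, 8 did not pass the filter, among them Egr2 and Rasgrp2, listed at 0 in all 24 libraries, and Gpr52 was not analysed here. Simulated data had the 24 libraries and 17438 genes, with 200 genes changed in equal numbers up and down. There edgeR called 94% of genes given a 2-fold change but 32% of those given a 1.25-fold change. Of its 143 calls 2 were false. The real comparison called 9298 genes, and a change of that extent was not simulated. Alternatives used DESeq2 1.42.0, limma 3.58.1, other scalings and filters, single sexes and, added after seeing the data, 21 libraries.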

Additional observations from a re-analysis of the deposited data

Results flagged for a closer look

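Within each group of 6 libraries, the highest and lowest values of 42 named genes and 19 summed marker lists were set against the other libraries with Dixon's criterion, in 244 groups. It marked 15 values, or 6.1% of groups, which is near the 1 in 20 groups that chance marks. Their origin was not tested. Some items overlap, since Hbb-bs also counts in the blood sum. In D1 male 1, Drd1 stood at 601 CPM against 428 to 483 in the other D1 males. Rpl22 stood at 44.6 CPM in D1 male 3 and at 56.7 CPM in D1 female 6, against up to 35.0 and 38.7 CPM in their groups, and both are libraries low in GC-rich transcripts. D1 male 3 also had the highest Slc22a8 (0.677 CPM against up to 0.172) and the highest microglial sum (31.4 CPM against 19.3 to 21.7). D1 female 6 had an astrocyte sum of 665 CPM against 410 to 491. The cholinergic sum of D1 female 3 was 30.3 CPM against 14.3 to 18.5 in the other D1 females. It was higher still in D1 male 4 and D1 male 6, at 35.28 and 32.93 CPM. Ggt1 stood at 0.203 CPM in D1 male 4 and at 0.0339 CPM in D1 female 5. The other libraries of those groups lay at 0 to 0.0488 and at 0. Both Ggt1 values lie near the floor, where very few reads decide the mark. D2 female 1 had the highest blood sum (531 CPM against 357 to 397), Hbb-bs (347 CPM against 236 to 264) and ependymal sum (7 CPM against 3.82 to 4.8). In D2, Nxph2 was at 0.778 CPM in female 2 (others up to 0.477), the macrophage and class II sum at 45.9 CPM in female 4 (up to 35.7), and Sp9 at 96.2 CPM in male 5 (up to 82.1).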

How the results depend on the processing

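The line difference was refitted with RLE scaling, scaling on neuronal genes, DESeq2, limma voom with quality weights, no filter, a mean CPM of at least 1, no sex term, a replicate block, single sexes and, chosen after seeing the data, without D1 male 2, D1 male 3 and D1 female 6. With no filter, 1034 genes were at least 2-fold higher and 2002 lower in D1, against 583 and 1249. With a mean CPM of at least 1 these were 388 and 707 over both sexes and, in females, 717 lower against 1096; fewer genes were tested. Males alone gave 3091 genes higher in D1, from fewer libraries. For the difference between the sexes, DESeq2 called 4 genes and edgeR without the filter 1. The median of the macrophage and class II list moved from −3.07 to −4.11 in males and −4.70 in females, where fewer of its genes were tested. The numbers of the replicates did not pair the libraries: over 12 pairs the correlation of deviations ran from −0.141 to 0.068, and 2 libraries correlated best with their own number. The replicate block gave 4567 genes higher and 4591 lower in D1, or 9158 calls over both sexes against 9298, of which 8921 were shared with the same sign, 5938 against 6314 in males and 7066 against 7249 in females. No named gene with a call changed direction in the refits that gave its value. Medians near 0 changed sign: the ribosomal list (0.006) was at −0.108 in males and −0.098 without the 3 libraries, the cyclic AMP list (0.004) at −0.058 to −0.005 over RLE scaling, neuronal scaling, single sexes and without the 3 libraries, the GABA neuron list (−0.005) at 0.048 without the 3, and the immediate early list (−0.146) at 0.011 in females. Under RLE and neuronal scaling the ribosomal list was at −0.004. Hrh2, Specc1l, Dlx2, Pcdh8, Otof, Cd163, Rpl32, Rpl3 and Rplp0 did not pass in 1 of the sexes, nor Dlx2 and Rorb without the 3 libraries. Cacng5, an eccentric spiny neuron gene, passed as lower in females (−0.30). Snrpd3 passed under the block, and Snrpd3 and Bcr without the 3 libraries.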
